A study of Homo sapiens with 3 samples.

Results

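The genes described here make microRNAs and put them to work: DROSHA, DGCR8, XPO5, DICER1, TARBP2, the Argonaute genes EIF2C1, EIF2C2, EIF2C3 and EIF2C4 (now AGO1 to AGO4) and TNRC6A. They were taken by symbol, with RNASEN accepted for DROSHA, and all 10 were found among the 18877 symbols of the expression table, on 16 RefSeq transcript rows. Of these, 9 genes (15 rows) have a value in every library, since the EIF2C4 row is blank in the vector library. RNA sequencing of poly-A RNA was done on A2780, an ovarian cancer line whose tumour of origin the labels call undifferentiated. There were 2 libraries of cells that express exogenous miR-181a (A2780-p181a_1 and A2780-p181a_2, called pool 1 and pool 2) and 1 library of cells that carry the pBABE control vector. In the labels the miR-181a cells are both "polyclonal pools" and "clone 1" and "clone 2", with no promoter and no measured level of miR-181a. With 1 control library and no statement that the pools are independent cultures, p-values measure the spread between the 2 pools, which may be technical.

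MicroRNAs are cut from long hairpin transcripts in the nucleus by the Microprocessor, made of the ribonuclease DROSHA and its RNA-binding partner DGCR8. Exportin 5, from XPO5, carries the short hairpin to the cytoplasm, where the ribonuclease DICER1 with its partner TARBP2 cuts it to a duplex. An Argonaute protein keeps 1 strand and, through a GW182 protein such as TNRC6A, brings deadenylases and decapping factors to messages that pair with the seed of that strand. Since the pools express exogenous miR-181a, the data allow a look at whether the messages of the machinery itself stood at another level in those cells.

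The seed of the introduced microRNA and the places where the messages of the machinery pair with it are shown because the folds below are set beside them. In the mature miR-181a-5p sequence from RefSeq (GRCh38.p14), capitals mark the seed, bases 2 to 8.
hsa-miR-181a-5p: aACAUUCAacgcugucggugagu
Seed matches were searched on the message strand of the 3 prime UTR of the canonical GENCODE transcript of each gene (GRCh37, the same assembly as hg19), as TGAATGTA (8mer), TGAATGT (7mer-m8) or GAATGTA (7mer-A1). The 8mer holds both shorter matches, and each place was counted once, as the longest match. A match was found in 5 of the 10 genes, at 10 places, and in 26.3% of the 12289 tested genes whose UTR could be read. Capitals mark the match in the sites of DROSHA (chr5:31401308-31401331, minus strand, 7mer-m8), DICER1 (chr14:95554182-95554205, minus strand, 7mer-A1), EIF2C3 (chr1:36529277-36529300, plus strand, 7mer-m8) and EIF2C4 (chr1:36319870-36319893 and chr1:36322774-36322797, plus strand, both 7mer-m8).
DROSHA: aaaacttgactttggTGAATGTgc
DICER1: ttgcaatgtgagaccGAATGTAat
EIF2C3: aatagtaataatttaTGAATGTga
EIF2C4 site 1: tttggtcgacttttgTGAATGTgt
EIF2C4 site 2: cctaacgaccttttgTGAATGTgc
EIF2C2 held 5 places, of which 1 was an 8mer, 2 were 7mer-m8 and 2 were 7mer-A1, and was the 1 member with an 8mer. Its UTR is 11888 bases long, and an 8mer was held by 6.71% of all genes read and by 43.7% of the 71 genes with a UTR at least that long. DGCR8, XPO5, TARBP2, EIF2C1 and TNRC6A held none of these letters in the UTR read. A match is a description of letters and not a shown site of action.

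The deposited values are the median coverage of 50 bp windows along each transcript, so they are already per length, and they come without read counts, which leaves the depth unknown. Over the 28848 rows with a vector value, coverage summed to 907092 in pool 1, 719263 in pool 2 and 798228 in the vector library, with 32.3%, 32.2% and 12.8% of rows at 0. The vector library stands apart from the pools. Of 8822 rows at 0 in both pools, 62.9% had a vector value above 0, and over all of them the vector values had a median of 1.15 and a 90th percentile of 16.8. Of 9 ovarian carcinoma lineage markers, 6 (EPCAM, ESR1, KRT7, MUC16, PAX8 and WT1) were at 0 in both pools. The list summed to 15.9 and 15.4 in the pools and 229 in the vector library. Of the 229, 104 came from 1 row of ESR1, whose other rows had 7.96, 4.64 and 4.57 in the vector library. KRT8 was detected, at 13.4 and 10.5 in the pools and 27.0 in the vector library. KRT18 had 2.38 and 4.91 in the pools and 13.9 in the vector library. MSLN had 0.14 and 0 in the pools and 12.4 in the vector library, but 0 there in its other row. The 4 endothelial markers summed to 0 and 0.037 in the pools and 220 in the vector library. The 5 immune markers summed to 2.36 and 2.44 in the pools and 33.5 in the vector library. The 6 fibroblast markers summed to 1790 and 1450 in the pools and 569 in the vector library, mostly through COL3A1 and DCN. COL1A1 went the other way, at 0 and 0.706 in the pools and 7.41 in the vector library. The part of these marker differences in the results below was not tested.

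Of the 9 genes with a value in every library, 5 stood higher in both pools than in the vector library, 1 stood lower in both, and 3 lay on either side of the vector value. The 5 were DGCR8, XPO5, TARBP2, EIF2C1 and TNRC6A, and the 1 was EIF2C3. Over all 12552 genes tested, 44.6% stood higher in both pools and 41.8% lower in both. Folds are differences of log2(coverage + 1), pools minus vector, a scale on which low coverage makes a change look smaller. The median fold of the 9 genes was 0.44, against 0.07 over all tested genes. None of the 9 passed limma at an adjusted p of 0.05 or at an unadjusted p of 0.05 (lowest unadjusted p 0.111, adjusted p from 0.239 to 0.947), where 1.0% of all genes rose and 21.7% fell by the test. No scaling between libraries was applied in this fit. Its SEs and p-values therefore also hold the difference between the pools as whole libraries, a median of -0.27 over all tested genes (pool 2 minus pool 1). Other scalings are given below. None was 1 log2 unit away from the vector value in both pools, while 2.53% of all genes were that much higher and 27.3% that much lower. The shares of genes that fell or stood lower, here and below, include genes at 0 in both pools, such as EPCAM. Such genes passed the filter on low values only through their vector value. By 0.5 log2 units, 2 members were higher in both pools (DGCR8 and XPO5), as were 17.7% of genes. An exact permutation test of 2 libraries against 1 cannot go below 0.333. In bulk RNA, a lower level in every cell and fewer cells with the message cannot be told apart.

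**Figure D1:**
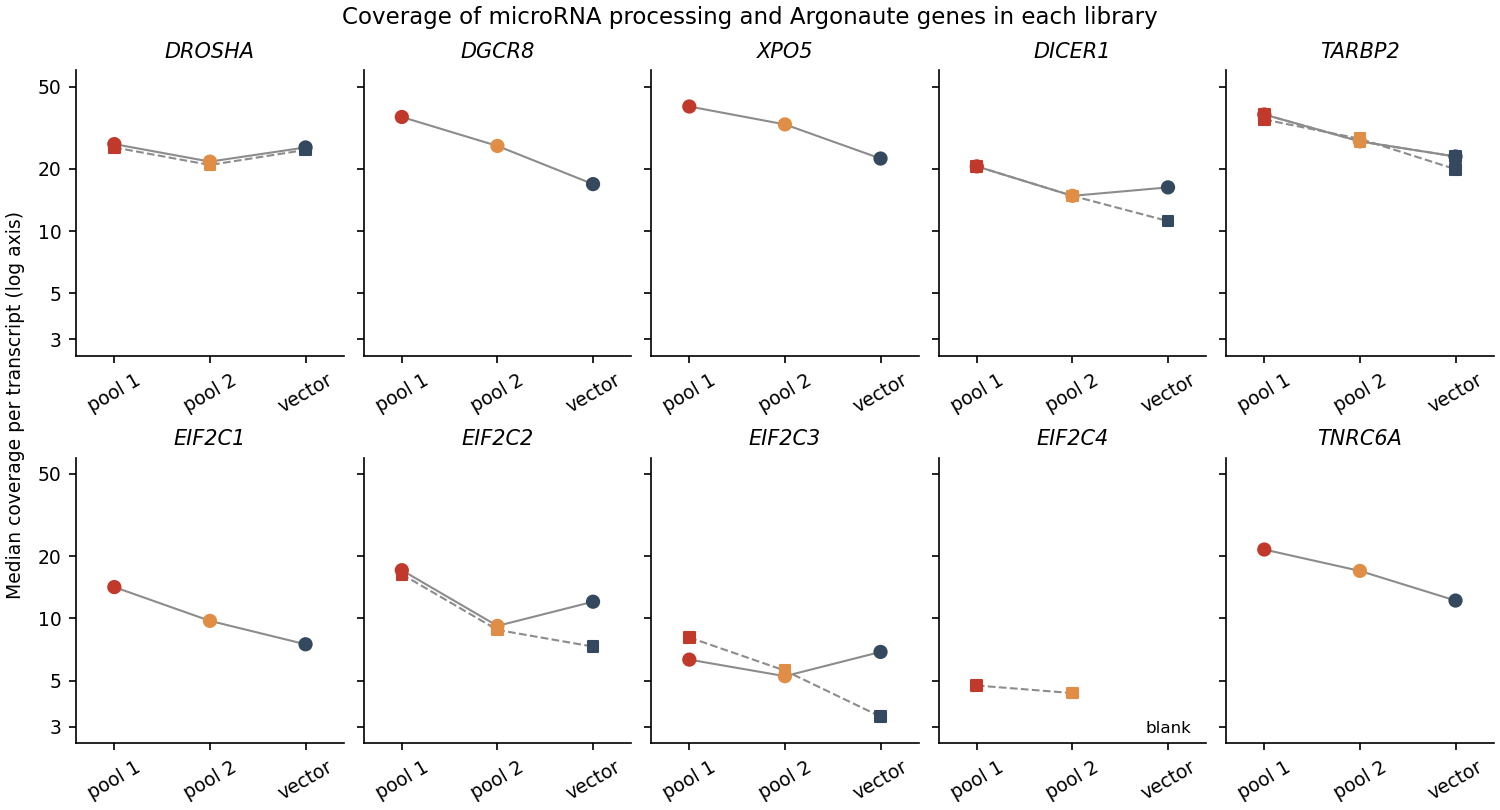
Median coverage (log axis) of each RefSeq row of the 10 genes in pool 1, pool 2 and the vector library, 1 point per library; circles with solid lines are the row used in the gene-level fit and squares with dashed lines are other rows. DGCR8, XPO5, TARBP2, EIF2C1 and TNRC6A descend across the 3 libraries, whereas the rows of DICER1, EIF2C2 and EIF2C3 part at the vector library, and EIF2C4 has no vector value.

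DROSHA and DGCR8, the parts of the Microprocessor, had mean folds of -0.08 and 0.81, a difference that was not tested. DROSHA (chromosome 5, 31400601 to 31532303 on GRCh37, minus strand, protein coding) had a coverage of 26.4 in pool 1 and 21.7 in pool 2, against 25.4 in the vector library. Its second row, NM_013235, had 25.4 and 20.9 in the pools and 24.7 in the vector library. The pools thus lay on either side of the vector value in both rows, and the mean fold was -0.08 (SE 0.27, limma adjusted p = 0.845). DGCR8 (chromosome 22, 20067744 to 20099400, plus strand, protein coding) had 35.7 and 25.8 in the pools, against 16.9 in the vector library. Both pools were above the vector library, by 1.04 and 0.58 log2 units, the highest mean fold of the 9 genes at 0.81 (SE 0.34, limma adjusted p = 0.259), which is higher than 89.2% of tested genes. Within a library, DGCR8 coverage was 1.35 and 1.19 times that of DROSHA in the pools and 0.665 times in the vector library, a ratio that no linear scaling of whole libraries can change and that was not tested.

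XPO5, which encodes the exporter of short hairpins (chromosome 6, 43490072 to 43543775, minus strand, protein coding), had 40.1 and 32.8 in the pools, against 22.5 in the vector library. It was the member with the highest coverage in each pool. Its mean fold of 0.67 (SE 0.26) had the lowest adjusted p of the 9 genes, 0.239 by limma. XPO5 coverage was 1.52 and 1.51 times that of DROSHA in the pools and 0.884 times in the vector library.

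DICER1, the ribonuclease of the cytoplasmic step (chromosome 14, 95552565 to 95624347, minus strand, protein coding), has 2 rows with the same pool values, 20.6 in pool 1 and 14.8 in pool 2, but with 16.3 (NM_177438) and 11.2 (NM_030621) in the vector library. By NM_177438, the row with the higher mean, the pools lay on either side of the vector value and the mean fold was 0.10 (SE 0.37, limma adjusted p = 0.869). By NM_030621 both pools were above it, by 0.82 and 0.38, with a mean fold of 0.60. The direction of DICER1 in pool 2 therefore turned on which vector value was taken. This is common in the table: of 1394 sets of rows of 1 gene with identical pool values (all values above 0), 78.3% differed in the vector library, and in 31.6% the highest vector value was at least 1.46 times the lowest, as it was for DICER1. Where pool 2 and the vector library were identical, pool 1 differed in 16.0% of 488 sets and reached that ratio in 0.205%. The gap between the DICER1 vector values was 5.10, and 27.8% of rows at 0 in both pools had a vector value at or above that. The part of the vector values of silent rows in this gap was not tested.

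TARBP2, the double-stranded RNA-binding partner of DICER1 (chromosome 12, 53894705 to 53900215, plus strand, protein coding), had 36.7 and 27.2 in the pools, against 23.0 in the vector library, on 2 identical rows (NM_004178 and NM_134324). Its other row, NM_134323, had 34.7 and 28.0 in the pools and 19.9 in the vector library. The pools were above the vector library in every row, with a mean fold of 0.44 in the row used (SE 0.32, limma adjusted p = 0.422) and 0.62 in NM_134323. PRKRA, the other double-stranded RNA-binding partner of DICER1, had 24.6 and 20.7 in the pools and 16.3 in the vector library, with a fold of 0.45.

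Among the Argonaute genes, EIF2C1 had the same direction in both pools on its only row, EIF2C2 in pool 2 and EIF2C3 in both pools changed direction with the row, and EIF2C4 could not be compared. EIF2C1 (chromosome 1, 36335409 to 36396133, plus strand, protein coding) had 14.2 and 9.73 in the pools, against 7.50 in the vector library, a mean fold of 0.59 (SE 0.39, limma adjusted p = 0.392). Its neighbours on the same strand are EIF2C4 (36273617 to 36323491) and EIF2C3 (36396319 to 36538101). These 3 genes are paralogs in tandem, and how the authors counted reads shared by paralogs is not given in the sources used here.

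EIF2C2 (chromosome 8, 141530255 to 141645732, minus strand, protein coding) encodes AGO2, the human Argonaute known for cutting targets that pair along their length. Its row NM_012154 had 17.1 and 9.20 in the pools, against 12.0 in the vector library, so the pools lay on either side (mean fold 0.06, SE 0.55, limma adjusted p = 0.947). Row NM_001164623 had 16.4 and 8.80 in the pools, close to the other row, but 7.31 in the vector library, so that both pools were above it (mean fold 0.65). EIF2C2 also had the largest difference between the pools among the 9 genes, with pool 2 lower than pool 1 by 0.83 log2 units. The median difference, pool 2 minus pool 1, was -0.42 over the 9 genes, all with pool 2 below pool 1, and -0.27 over all tested genes, of which 77.2% had pool 2 below pool 1.

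EIF2C3 had 2 rows of opposite direction. Row NM_024852 had 6.32 and 5.26 in the pools, against 6.89 in the vector library, and both pools were below it (mean fold -0.22, SE 0.19, limma adjusted p = 0.487). Row NM_177422 had 8.09 and 5.60 in the pools, against 3.35 in the vector library, and both pools were above it (mean fold 0.83). The first row was used for the gene since its mean over the 3 libraries was higher, through its vector value, although its pool values were lower. EIF2C4 had 4.74 in pool 1 and 4.36 in pool 2, the lowest of the 10 genes, and a blank in the vector library, as did 308 rows in all, of which 204 were above 0 in both pools.

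TNRC6A, the GW182 protein that links Argonaute to the deadenylases (chromosome 16, 24621530 to 24838953, plus strand, protein coding), had 21.5 and 17.0 in the pools, against 12.2 in the vector library. Both pools were above the vector library, with a mean fold of 0.61 (SE 0.32, limma adjusted p = 0.323). Its paralogs were of lower coverage. TNRC6B had 10.7 and 6.30 in the pools and 5.90 in the vector library, and TNRC6C had 4.56 and 2.71 in the pools and 2.72 in the vector library.

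With every row tested as its own feature, a choice made after the rows were seen to differ, 10 of the 15 member rows stood higher in both pools, 1 lower in both and 4 on either side, while 50.8% of all 19181 rows tested stood higher in both pools and 35.3% lower. None of the 15 passed (limma adjusted p from 0.219 to 0.948, lowest unadjusted p 0.0804), where 1.13% of rows rose and 17.2% fell.

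**Figure D2:**
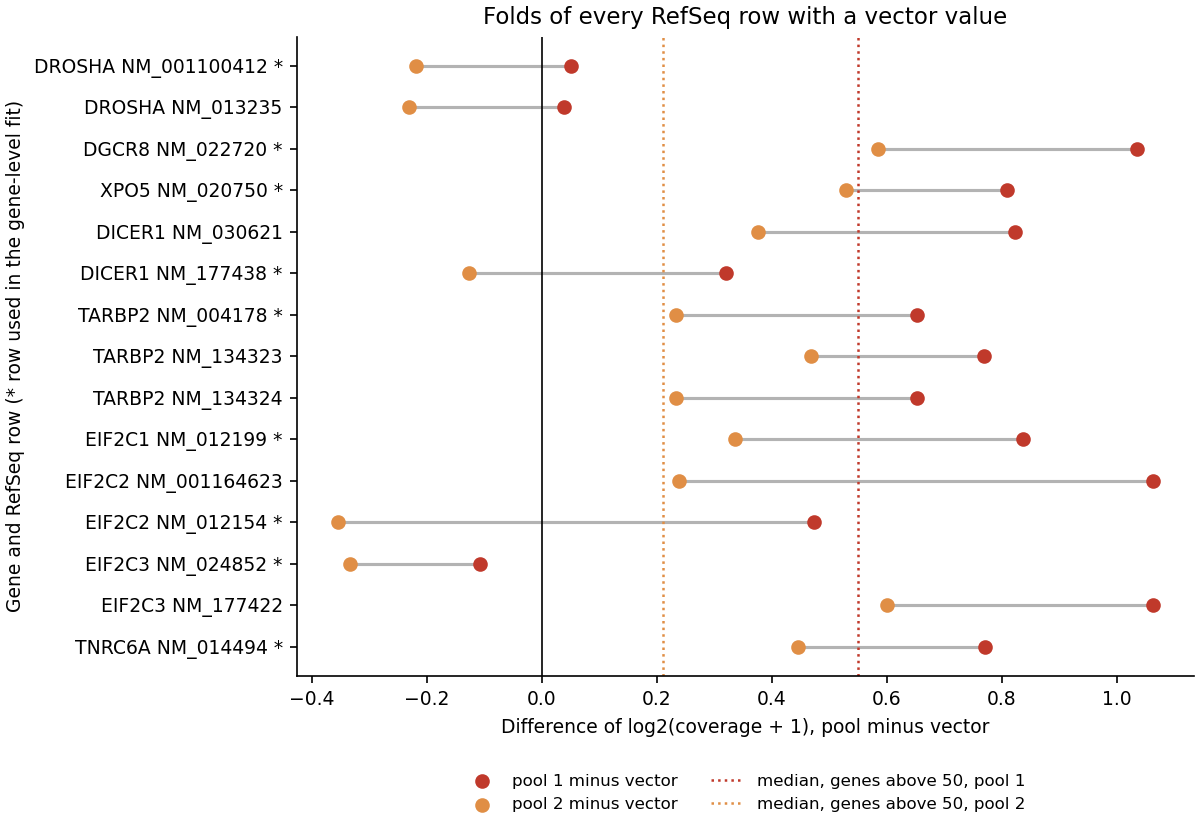
Difference of log2(coverage + 1) between each pool and the vector library for the 15 rows with a vector value (pool 1 red, pool 2 orange; an asterisk marks the row used for the gene). Dotted lines give the median difference of genes with a mean coverage above 50, 0.55 in pool 1 and 0.21 in pool 2; DROSHA lies left of both lines and DGCR8 right of both.

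By level, the order of the members was XPO5, TARBP2, DGCR8, DROSHA, TNRC6A and DICER1 in both pools, with EIF2C2, EIF2C1 and EIF2C3 below them in pool 1 and EIF2C1, EIF2C2 and EIF2C3 in pool 2. In the vector library DROSHA came first, followed by TARBP2, XPO5, DGCR8, DICER1, TNRC6A, EIF2C2, EIF2C1 and EIF2C3. By their pool means, neighbours in this order differed by less than the larger of their SDs, except DROSHA (24.0 ± 3.30) and TNRC6A (19.3 ± 3.23), and EIF2C1 and EIF2C3. TARBP2 averaged 31.9 ± 6.70 and DGCR8 30.7 ± 6.95 in the pools (SD, n = 2 each), EIF2C2 13.2 ± 5.59 and EIF2C1 12.0 ± 3.14. EIF2C3 averaged 5.79 ± 0.753. The 3 Argonaute genes with a vector value summed to 37.6 and 24.2 in the pools and 26.4 in the vector library. EIF2C1 made up 37.7% and 40.2% of that sum in the pools and 28.4% in the vector library, and EIF2C3 16.8% and 21.7% in the pools and 26.1% in the vector library. The sums and shares rest on the rows used, and the row of EIF2C3 decides its share. In the vector library EIF2C2 had 12.0 and EIF2C3 6.89 in the rows used, against 7.31 and 3.35 in their other rows. Those other rows would lower the vector sum and raise the share of EIF2C1 there.

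The direction of several members depended on how the libraries were put on 1 scale. Genes with a mean coverage above 50 (2186 genes) had a median fold of 0.55 in pool 1 and 0.21 in pool 2. Relative to those medians, 5 of the 9 genes stood higher in both pools (DGCR8, XPO5, TARBP2, EIF2C1 and TNRC6A, by 0.06 to 0.43 in the mean) and the other 4 lower in both (DROSHA, DICER1, EIF2C2 and EIF2C3, by -0.60 to -0.28), while 28.7% of tested genes stood higher in both pools and 59.9% lower. In that scaling the median of the members was 0.06 and that of all tested genes -0.31. DROSHA then fell, with a fold of -0.46 and a limma adjusted p of 0.0482, in a setting where 42.9% of all genes fell. No other member passed there, where 8.28% of genes rose, DGCR8 being at 0.43 with an adjusted p of 0.0691. With library medians set equal, all 9 genes stood higher in both pools, as did 60.9% of genes, and 7 rose by the test, as did 50.6%. With quantile normalization, which the labels name but the deposited values do not show, all 9 again stood higher, as did 62.5% of genes, and 7 rose, as did 44.9%. The fold of DGCR8 was above 0 in every setting run (0.43 to 1.23), as were those of XPO5 (0.29 to 1.09), TNRC6A (0.23 to 1.18), EIF2C1 (0.21 to 2.01) and TARBP2 (0.06 to 0.86). In most settings that sign was fixed. With both pools above the vector value, no filter, variance trend, pseudocount or omission of a pool could change it. DGCR8, XPO5, TNRC6A and EIF2C1 have a single row each, so the choice of row could not either. The fold of DROSHA ran from -0.46 to 0.33, and that of EIF2C3 from -0.60 to 1.71.

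**Figure D3:**
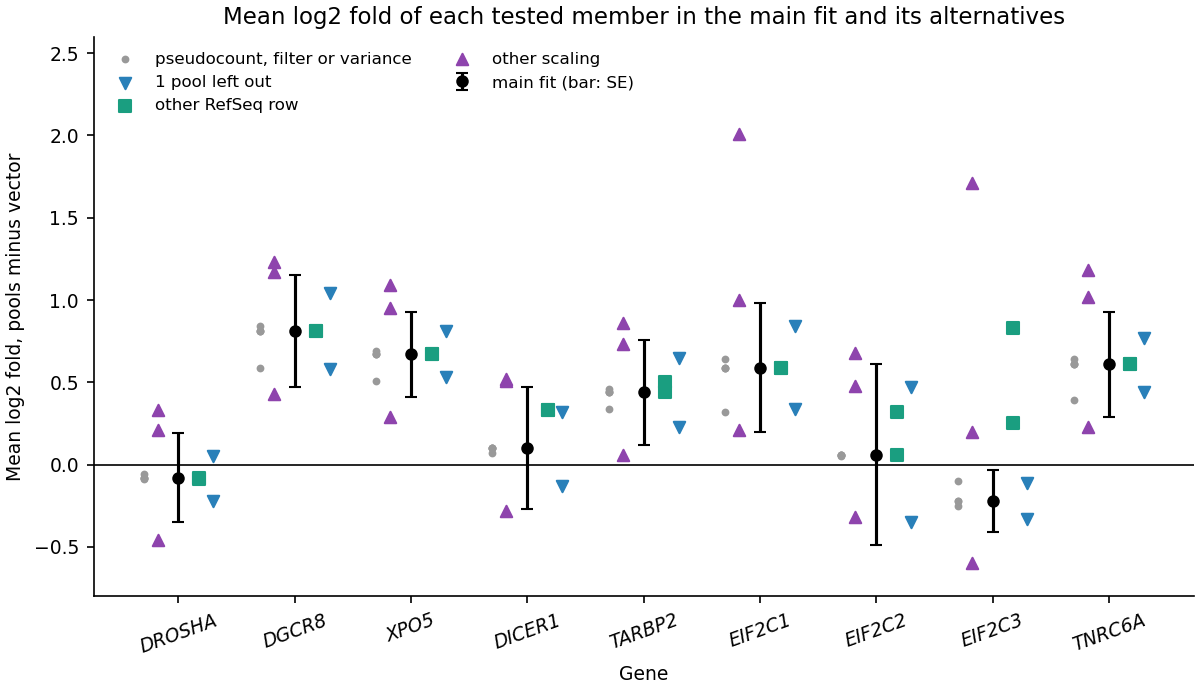
Mean log2 fold, pools minus vector, of the 9 tested genes (black, main fit with its SE) and its value under 12 alternatives, grouped by the choice changed. DGCR8, XPO5, TARBP2, EIF2C1 and TNRC6A stay above 0 throughout, a sign that most of the alternatives could not change; DROSHA, DICER1, EIF2C2 and EIF2C3 lie on both sides of 0.

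The 5 genes with a seed match and the 5 without one were also set side by side. Of those with a match, the 4 that could be tested (DROSHA, DICER1, EIF2C2 and EIF2C3) had mean folds from -0.22 to 0.10, and the 5 without (DGCR8, XPO5, TARBP2, EIF2C1 and TNRC6A) had mean folds from 0.44 to 0.81, so the ranges did not overlap. They overlapped in 2 of 12 other settings. With the row of the highest pool mean EIF2C3 was at 0.83, and with quantile normalization the ranges were 0.21 to 1.71 with a match and 0.73 to 2.01 without, again through EIF2C3. They did not overlap in the other 10 settings, among them the mean of the rows of a gene (-0.09 to 0.33 with a match, 0.50 to 0.81 without). In some of these settings that outcome was fixed. Leaving out the filter or the variance trend keeps every fold as it was, and the filter at the median only removes EIF2C3 from these genes. Medians set equal and folds relative to genes above 50 move every mean fold by the same amount. By their other rows DICER1, EIF2C2 and EIF2C3 were at 0.60, 0.65 and 0.83, within or above the range without a match, and DROSHA at -0.10. For DICER1, EIF2C2 and EIF2C3 the row used was the one with the higher vector value. Of the genes without a match, only TARBP2 has more than 1 row. The genes also differed in length. The median 3 prime UTR was 4285 bases with a match and 1764 without, against 1236 over the genes read. The 4285 bases are those of EIF2C4, which has no fold. The 4 genes with a match and a fold had 938, 4270, 11888 and 16755 bases. The 5 genes without a match had 283, 1534, 1764, 2411 and 10925. EIF2C1, at 10925 bases, had a long UTR without a match and DROSHA, at 938 bases, a short one with a match. Over all genes read, the median fold was 0.09 for the 3234 genes with a match, 0.07 for the 9055 without and 0.03 for the 825 with an 8mer, so no such difference was seen across the table. A test was not made on so few genes, and the part of UTR length and of the choice of row was not tested.

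**Figure D4:**
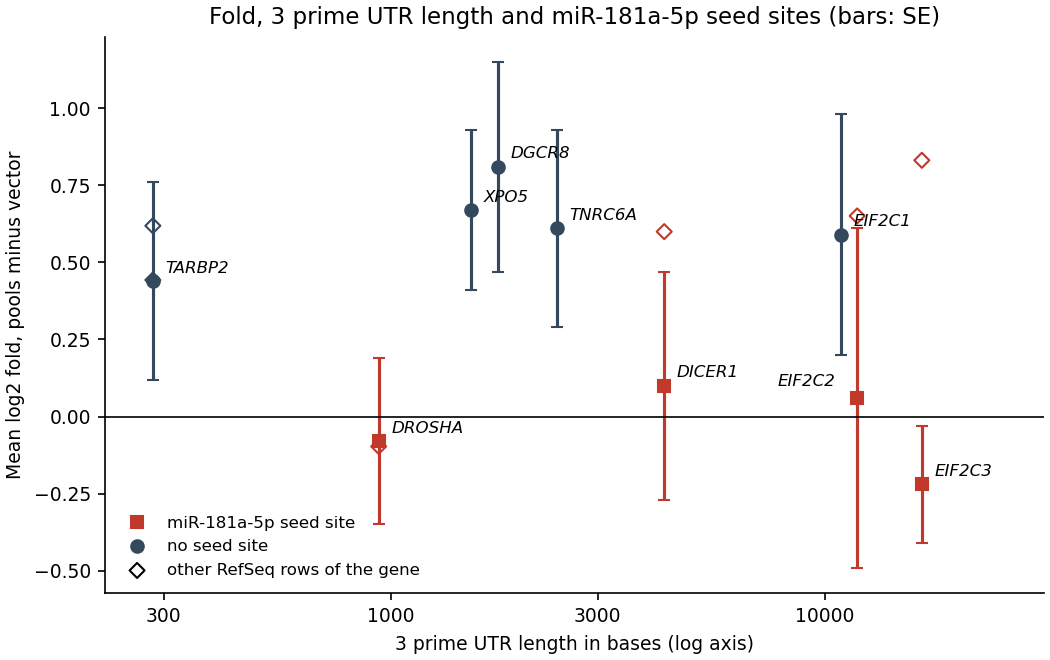
Mean log2 fold (bars, SE) against the length of the 3 prime UTR (log axis) for the 9 tested genes, with red squares for genes with a miR-181a-5p seed match and blue circles for genes without; open diamonds are other RefSeq rows of the same gene. Filled red points lie between -0.22 and 0.10 and filled blue points between 0.44 and 0.81, while the open red diamonds of DICER1, EIF2C2 and EIF2C3 reach 0.60 to 0.83.

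Genes that work beside the members were followed in lists. Of 13 other Microprocessor, export and DICER1 partners, none rose or fell by the test and all 13 stood higher in both pools (median fold 0.63, and 0.24 relative to genes above 50, where 10 stood higher and 1 lower in both). Their mean folds ran from 0.05 to 1.08, and the lowest fold in pool 2 was 0.07. Over all tested genes 44.6% stood higher in both pools, and relative to genes above 50 it was 28.7% higher and 59.9% lower. DDX17, an RNA helicase of the Microprocessor, had 370 and 333 in the pools and 165 in the vector library (fold 1.08, limma adjusted p = 0.10). DDX5, its paralog, had 381 and 280 in the pools and 200 in the vector library. ILF2, an RNA-binding protein, had 236 and 209 in the pools and 125 in the vector library (fold 0.83), and HNRNPA1, which binds some primary transcripts, had 1670 and 2208 in the pools and 1031 in the vector library (fold 0.90). HNRNPA1 has many near-identical copies in the genome, so its value is uncertain. Relative to genes above 50, DDX17, HNRNPA1 and ILF2 rose (limma adjusted p = 0.00015, 0.00671 and 0.0243), as did 8.28% of all genes.

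Of 14 genes of Argonaute loading and import, none rose or fell and all 14 stood higher in both pools, with a median fold of 0.49 that was 0.11 relative to genes above 50, where 6 stood higher and 3 lower in both pools (all tested genes: 44.6% higher in both pools, and relative to genes above 50 28.7% higher and 59.9% lower). Mean folds ran from 0.19 to 0.80, and the lowest fold in pool 2 was a near tie (58.3 against 58.2 in the vector library). FKBP5, a co-chaperone of HSP90, had 93.1 and 79.0 in the pools and 49.0 in the vector library. CDC37, another co-chaperone, had 289 and 200 in the pools and 145 in the vector library, and the chaperone gene HSP90AB1, which also has near-identical copies, had 1500 and 1283 in the pools and 900 in the vector library.

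Of 30 genes of the silencing effectors, which deadenylate, decap and degrade target messages, none rose or fell. There 20 stood higher in both pools and 5 lower, with a median fold of 0.44 (0.06 relative to genes above 50, where 14 stood higher and 9 lower in both, and 2 rose and 5 fell). Of all tested genes 44.6% stood higher and 41.8% lower in both pools, and relative to genes above 50 28.7% stood higher and 59.9% lower, 8.28% rose and 42.9% fell. CNOT8, a deadenylase of the CCR4-NOT complex, had 47.7 and 50.6 in the pools and 20.4 in the vector library (fold 1.23, limma adjusted p = 0.0758). XRN1, the exonuclease that degrades decapped messages, had 4.68 and 3.93 in the pools and 13.8 in the vector library (fold -1.49, limma adjusted p = 0.0548), on 2 rows of like values. PATL1, a decapping activator, had 22.7 and 16.9 in the pools and 48.6 in the vector library (fold -1.27, limma adjusted p = 0.146). The values of CNOT8, XRN1 and PATL1 kept their direction in each of the 3 other scalings, and passed the test in all 3. Of the 12552 tested genes, 6355 rose and 3701 fell with library medians set equal, and 5641 rose and 3338 fell with quantile normalization. The vector value exceeded the pool mean by 9.52 for XRN1 and by 28.7 for PATL1. Of the rows at 0 in both pools, 17.1% had a vector value of at least the XRN1 difference and 5.32% of at least the PATL1 difference, and their part was not tested.

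Of 13 genes that act on precursors or on microRNA turnover, 2 fell, none rose, 5 stood higher in both pools and 7 lower in both, with a median fold of -0.23 that was 0.19 with library medians set equal, 0.04 with quantile normalization and -0.61 relative to genes above 50, where 7 fell. Of all tested genes 21.7% fell, 1.0% rose, 44.6% stood higher and 41.8% lower in both pools, and 42.9% fell relative to genes above 50. DIS3L2, the exonuclease that degrades uridylated let-7 precursors, had 11.5 and 9.84 in the pools and 312 in the vector library (fold -4.75, SE 0.23, limma adjusted p = 0.00854). LIN28A, which binds let-7 precursors, had 15.2 and 17.5 in the pools and 99.5 in the vector library (fold -2.54, SE 0.23, limma adjusted p = 0.0288). Both have a single row, so the vector value cannot be checked against another row. The vector value exceeded the pool mean by 302 for DIS3L2 and by 83.2 for LIN28A, and of the rows at 0 in both pools 0.34% had a vector value of at least the DIS3L2 difference and 1.52% of at least the LIN28A difference. Their part was not tested. LIN28B, the paralog, had 23.1 and 24.3 in the pools and 27.9 in the vector library. The uridylating enzyme gene ZCCHC11 had 21.4 and 18.5 in the pools and 21.2 in the vector library. PAPD5, a non-canonical poly-A polymerase, had 6.54 and 4.22 in the pools and 31.2 in the vector library in the row used, and 7.33 and 4.75 in the pools and 3.85 in the vector library in its other row, which reverses its direction.

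**Figure D5:**
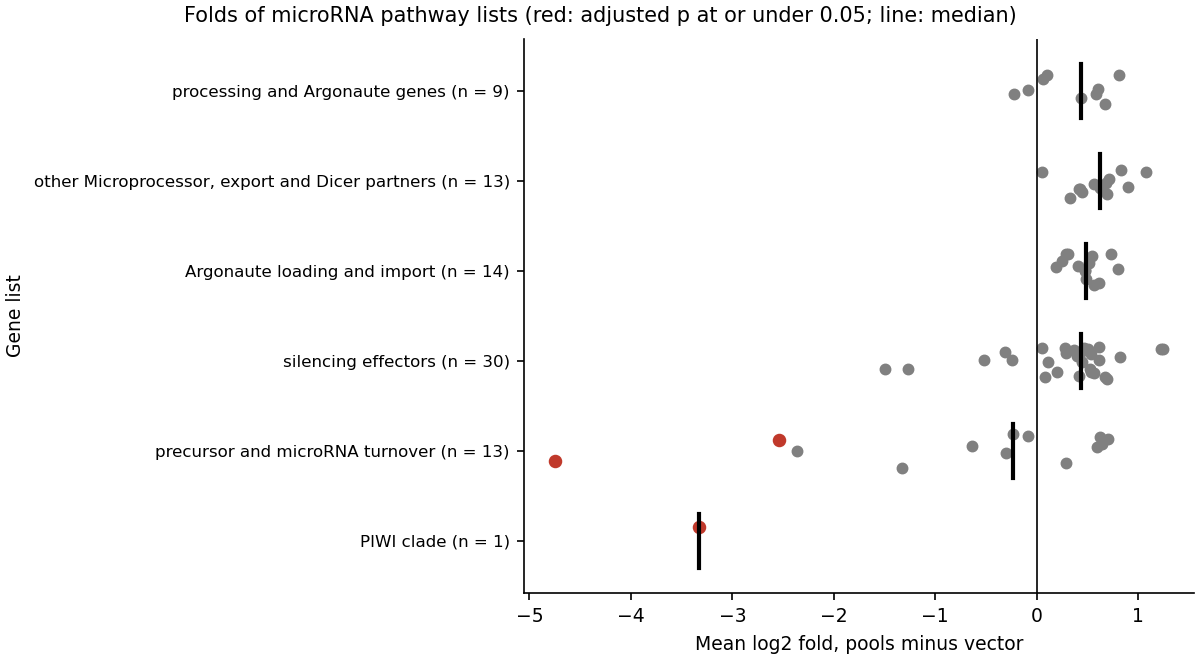
Mean log2 fold, pools minus vector, of each tested gene of the members and of 5 lists of microRNA pathway genes, 1 point per gene (vertical place within a list is arbitrary), with the list median as a bar and genes past the test in red. Medians lie at 0.44, 0.63, 0.49, 0.44 and -0.23 for the lists with more than 1 tested gene, and DIS3L2 at -4.75 lies farthest from 0.

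The 4 PIWI genes, which serve small RNAs of the germ line, were at 0 in both pools. PIWIL3 was listed at 9.04 in the vector library and fell by the test, PIWIL2 was listed at 1.19 there and PIWIL1 and PIWIL4 at 0. PIWIL3 passed the filter on low values only through its vector value, so its fall was fixed by the filter.

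Other genes shared the pattern of the members closely. For DGCR8, the member with the highest fold, the nearest genes over the 3 libraries were SAPS2, ITGB1BP1 and RMND5A (distance 0.07 each on the log2 scale), and 97 genes lay within 0.25. For EIF2C3, the member with the lowest fold in the rows used, they were KIAA1841 and FAIM (0.06 each) and COX10 (0.08), with 52 genes within 0.25. These are neighbours of the row used, with a mean fold of -0.22. The other row of EIF2C3 had a mean fold of 0.83, above the 0.81 of DGCR8. With 3 libraries such likeness is a description of level and direction only.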

How the data were processed

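Reads were mapped by the authors to hg19, and the median of a profile of 50 bp windows was kept for each gene, per the labels' protocols. The values the authors deposited are a coverage signal on a linear scale whose quantiles differ between libraries, although the protocols name a log transformation and quantile normalization. No aligner or annotation is named there. Of 29156 rows, 308 with a blank vector value were left out, and 52 of 54 symbols stored as dates were restored by accession. A gene was represented by its row of highest mean coverage over the 3 libraries. After removal of the lowest 25% of genes by mean coverage (genes at 0 throughout were set aside first), 12552 genes with a mean over 2.44 were fitted in limma 3.58.1 (R 4.3.3) as log2(coverage + 1), pools against vector. Moderated variances followed a trend, and p-values were adjusted by Benjamini-Hochberg over all tested genes, with 0.05 as the threshold. With 1 residual degree of freedom, the vector library is taken to vary like the pools. The fit was tested on simulated data whose spread was set by hand and not taken from the pools. Seed matches were read from GENCODE transcripts on GRCh37 (97.9% of tested genes), after 96.4% of accessions were matched to current symbols.

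The members, gene lists and settings were chosen with earlier results of these data known. Named in the text are all 10 members and, in each list, up to 4 genes past the test and up to 3 whose fold shared by the pools was largest, with the 3 genes nearest to the members of highest and lowest fold. In the marker lists this rule also picked MSLN, COL1A1, COL3A1 and DCN. It picked CD3E, CD68, KDR, PECAM1 and VWF too, which are given only within the sums. PRKRA, DDX5, TNRC6B, TNRC6C, LIN28B and ZCCHC11 were added as partners or paralogs after their values were seen. Also added after their values were seen were PIWIL1, PIWIL2, PIWIL4, KRT7, KRT8, KRT18, MUC16, PAX8 and WT1.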

Additional observations from a re-analysis of the deposited data

How the results depend on the processing

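Member folds were recomputed 107 times over 12 alternatives, 10 of them with a test. In 82, direction was kept, and so was the call where there was a test. With 1 pool left out there was no call, so folds counted there as kept rest on direction alone. Another 14 kept direction and newly passed the test. The other 11 reversed, of which EIF2C3 under quantile normalization also passed. All 15 passes came under another scaling. By the test, 126 genes were higher and 2725 lower. These counts were 278 and 5626 with no filter, and 402 and 1476 with a filter at the median. Higher genes numbered 6355 with library medians set equal, 5641 with quantile normalization and 216 with every RefSeq row tested (added after seeing the data), and 1039 were higher and 5390 lower relative to genes above 50. Members higher by the test numbered 7 with medians set equal and 7 with quantile normalization, against 0, and 1 member was lower relative to genes above 50, against 0. Members higher in both pools numbered 9 in both of those first scalings, against 5. Members lower in both numbered 0 in them, with a filter at the median (which removes EIF2C3) and with both other choices of row, and 4 relative to genes above 50, against 1. The median member fold of 0.44 was 0.86 with medians set equal, 0.95 with quantile normalization and 0.06 relative to genes above 50. The median difference between pools of -0.42 was -0.09, -0.06 and -0.08 in those 3 scalings. By 1 log2 unit in both pools, 318 genes were higher and 3430 lower. The lower count was 5718 with no filter, 1428 with a filter at the median and 2282 with a pseudocount of 10. The higher count was 2188 with medians set equal, 3365 with quantile normalization, 86 relative to genes above 50, 63 and 506 with pseudocounts of 10 and 0.1, 635 over rows and 2225 by 0.5 log2 units. Members higher by that size numbered 3, 4 and 2 with medians set equal, quantile normalization and 0.5 log2 units, against 0.

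EIF2C3 turned to 0.20 with medians set equal, 1.71 with quantile normalization (limma adjusted p = 0.0025), 0.25 with the mean of its rows and 0.83 with the row of the highest pool mean. DROSHA turned to 0.33 and 0.21 in those scalings, and DICER1 and EIF2C2 to -0.28 and -0.32 relative to genes above 50. With 1 pool left out there is no test. DICER1 was then at -0.13 (without pool 1) and 0.32, EIF2C2 at -0.35 and 0.47, and DROSHA at -0.22 and 0.05 (without pool 2). Members above the vector value ranged from 5 to 8, and those below from 1 to 4. Genes higher by 1 log2 unit ranged from 356 to 1305, and members higher by it from 0 to 1. Setting medians equal, or taking folds relative to genes above 50, moves the mean fold of every member by the same amount. The reversals in those scalings are that move across 0. The cause of the other changes was not tested. No paired analysis was possible because the vector library is single and its label has no replicate number.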
